A study of Mus musculus with 4 samples.

Results

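Heme synthesis turns glycine and succinyl-CoA into heme in a chain of enzymatic steps. The genes described here are Alas1, Alas2, Alad, Uros, Urod, Cpox, Ppox and Fech, taken in pathway order whatever their values. All probe sets whose only gene symbol in the array platform's annotation is one of these 8 were used, which gave 11 of the 12422 tested probe sets. Urod, Cpox and Ppox have more than 1 probe set.

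The study measured RNA of mouse cells on single-colour arrays, with 2 arrays titled Hemangioblast and 2 titled hCD4. Their source was 1 embryonic stem (ES) cell line that carries human CD4 as a reporter of Scl, the transcription factor made by Tal1. Per the labels, the line formed embryoid bodies in serum over 2.75 days, a sort for Flk-1 (the product of Kdr) together with Scl gave the cells taken as hemangioblasts, and blast colonies grown from replated embryoid body cells were picked and combined. Titles, sources (cultured hemangioblasts, hCD4 ES cells) and study text (hCD4, Blast) disagree on which arrays hold which cells, so the groups are called here by their titles alone. Per the labels, 20 ug of unamplified RNA was labelled. No label gives separate cultures for the arrays of a group, so the spread behind each p-value may be technical only.

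Before scaling, the trimmed mean intensity was 388 and 345 on the Hemangioblast arrays, against 389 and 334 on the hCD4 arrays. The markers of the sort did not follow the title Hemangioblast. Kdr had scaled intensities of 648 and 570 on the Hemangioblast arrays, against 1625 and 2003 on the hCD4 arrays, and Tal1 had 391 and 333 against 597 and 696. Many blood cell markers were higher on the Hemangioblast arrays. The threshold was an adjusted p under 0.05 (limma), with each gene taken by its brightest probe set. Over all measured genes 3.43% were called higher and 1.95% lower. Of 15 measured erythroid markers 9 were past the threshold and higher and 0 lower. Their summed scaled intensity was 46126 and 49970 on the Hemangioblast arrays, against 19747 and 21182 on the hCD4 arrays. Of 17 measured macrophage and myeloid markers 14 were higher and 0 lower, with sums of 13569 and 14907 against 1902 and 2233. On the hCD4 arrays 8 of the macrophage and myeloid markers and 0 of the erythroid ones had a mean under 50. Of 4 megakaryocyte markers 3 were higher, and of 5 mast cell markers 0 passed by limma (2 higher and 0 lower at an unadjusted p under 0.05). Of 7 markers of visceral endoderm and liver, which also make heme, 0 passed by limma and 0 had an unadjusted p under 0.05. Of 10 measured pluripotency markers, limma called 0 higher and 2 lower. Pou5f1 had 104 and 144 on the Hemangioblast arrays, against 1526 and 585 on the hCD4 arrays (log2 change -2.79, adjusted p = 0.00663). Dppa5a had 310 and 169 against 1397 and 745 (-2.08, adjusted p = 0.0136). The summed markers were 4696 and 4826 against 8083 and 6016, so the hCD4 arrays differed from each other. Esrrb, named after its values were seen, had 3343 and 3476 against 3165 and 3579, the largest part of each sum. Of 5 hemangioblast regulators limma called 0 higher and 2 lower, Gata2 and Etv2. Etv2 had 19.0 and 36.4 against 443 and 422 (log2 change -3.39, adjusted p = 0.000703). Of 5 endothelial markers 1 was higher (Tie1) and 0 lower, with sums of 2346 and 1984 against 1623 and 1960. Of 7 fibroblast markers 1 was higher (Col3a1) and 0 lower, with sums of 1886 and 2363 against 1778 and 1434. The erythroid, macrophage and megakaryocyte lists were among those with higher sums on the Hemangioblast arrays, where the heme enzymes below also had higher means. With only 2 groups, all lists that are higher on the same arrays move together. The part of any cell type in the changes of the heme enzymes was not tested. In such bulk samples a change in the number of cells of a type and a change in RNA per cell cannot be told apart.

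Heme is the iron-holding ring of haemoglobin, of the respiratory cytochromes and of many oxidases. Its synthesis starts in the mitochondrion, continues in the cytosol and ends in the mitochondrion again. The first step is made by either of a pair of enzymes. Alas1 is the housekeeping form, made in all cells and repressed by heme, while Alas2 is the form of red cell precursors, transcribed under GATA1 and controlled in translation by iron. Red cell precursors raise the pathway as they fill with globin.

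The upstream sequences of Alas2, Alas1 and Alad are shown because Alas2 and Alas1 encode the same step but differed in the size of their change, and because Alas2 and Alad passed the test. Each is the stretch of 250 bases that ends just before a transcription start annotated by RefSeq on GRCm38.p6, read 5′ to 3′ on the gene's strand. Alas2 lies on the plus strand at chrX:150547167-150547416, Alas1 on the minus strand at chr9:106247955-106248204 (the first of 2 annotated starts) and Alad on the minus strand at chr4:62520064-62520313 (the first of 2). Capitals mark AGATAA, a core that GATA factors bind, and CACCC, a core that Kruppel-like factors bind, on either strand, so that a match on the other strand reads TTATCT or GGGTG.
Alas2: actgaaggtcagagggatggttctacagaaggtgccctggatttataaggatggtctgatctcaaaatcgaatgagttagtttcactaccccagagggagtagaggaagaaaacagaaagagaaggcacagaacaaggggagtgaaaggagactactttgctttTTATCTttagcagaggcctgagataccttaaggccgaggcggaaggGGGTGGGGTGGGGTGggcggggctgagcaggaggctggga
Alas1: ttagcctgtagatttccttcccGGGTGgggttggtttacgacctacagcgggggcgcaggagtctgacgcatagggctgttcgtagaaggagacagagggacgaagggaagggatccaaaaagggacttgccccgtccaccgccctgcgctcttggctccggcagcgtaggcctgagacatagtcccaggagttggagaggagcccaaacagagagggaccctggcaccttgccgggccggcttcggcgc
Alad: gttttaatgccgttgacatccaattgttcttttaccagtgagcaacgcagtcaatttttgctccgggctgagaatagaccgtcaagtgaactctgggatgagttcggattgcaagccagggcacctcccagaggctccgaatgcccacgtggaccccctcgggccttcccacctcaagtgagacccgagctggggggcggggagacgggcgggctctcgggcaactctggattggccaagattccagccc

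All but Fech of the 8 genes matched the promoter table, with 10 starts in all. AGATAA occurred upstream of Alas2, where it lies from base -86 to -81 before the start, and upstream of none of the other 6 matched genes. It was found in 9.99% of all 32851 windows of the same length. Only these exact letters were searched for, so other sequences that GATA factors bind were not counted in any gene. CACCC occurred in 3 adjoining copies between -40 and -26 upstream of Alas2, in 4 copies upstream of Cpox, in 1 copy upstream of each Alas1 start and in 1 copy upstream of the second Alad start, against a share of 52.0% of all windows with at least 1. GGGCGG, a core that Sp1 binds, began at the last base of the CACCC run of Alas2 (-26 to -21). It occurred upstream of 5 of the 7 matched genes, among them Alad with 2 copies at the first start, and in 32.7% of all windows. The count by gene and the share of windows differ in unit. Alas1, Alad and Uros have 2 windows each, and a gene was counted if either held a match. TATAAA was found upstream of Alas2 alone among the matched genes (-209 to -204), and in 12.4% of all windows. TGCGCA, the core of the Nrf1 site, was found upstream of Cpox in 1 copy and in 6.43% of all windows, and TGANTCA, bound by NF-E2 and AP-1, was found upstream of 0 of the 7 and in 6.75% of all windows. These matches describe letters in a window and were not tested as binding sites.

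Heme enzymes were higher on the Hemangioblast arrays at the first erythroid step, the second step and the last step. Alas2, Alad and Fech passed an adjusted p of 0.05 (limma, Benjamini-Hochberg over all tested probe sets), as 3 of 11 probe sets or 3 of 8 genes, and 0 were lower. Over all tested probe sets 2.91% were called higher and 1.56% lower, 4.48% together. All 11 probe sets had a log2 change above 0, where 54.4% of all tested probe sets did, and 8 of the 11 had an unadjusted p under 0.05 and a higher level, where 8.9% of all did. For 9 of the 11 both Hemangioblast arrays lay above both hCD4 arrays, a pattern found in 24.8% of all tested probe sets, with the reverse order in 19.7%. The median log2 change was 0.72 over the 8 genes, each by its brightest probe set, and 0.02 over all 8251 measured genes.

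**Figure D1:**
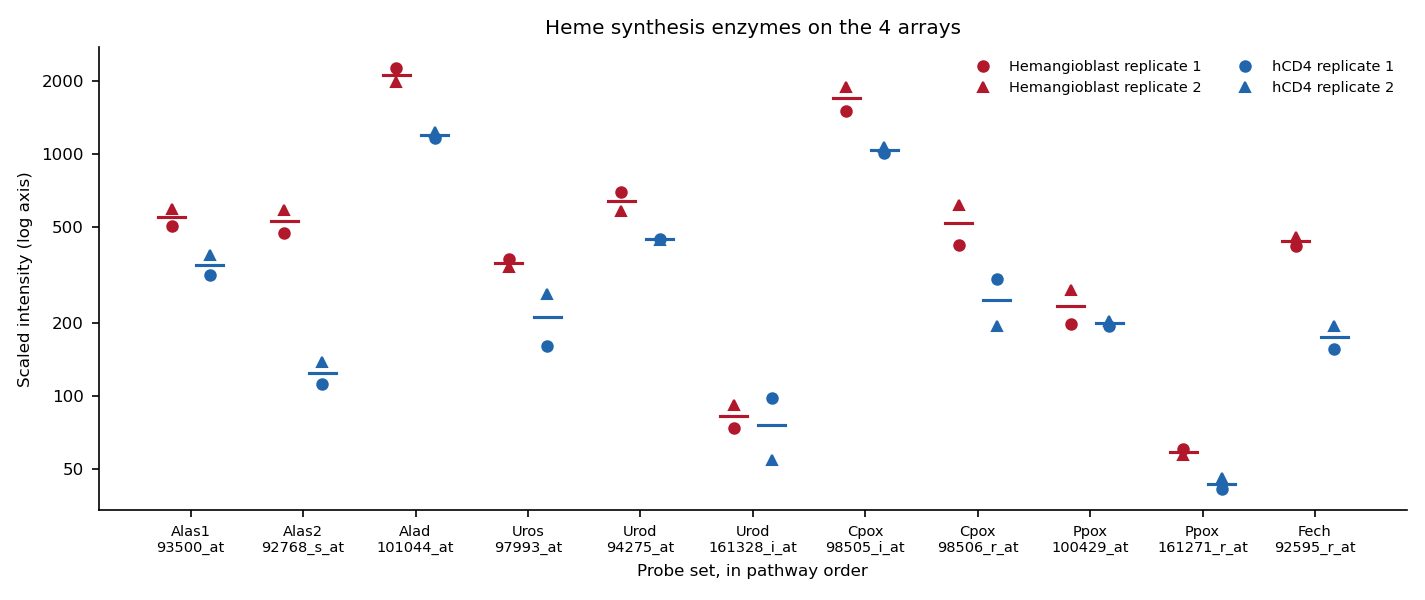
Scaled intensity (log axis) of each heme enzyme probe set on the 2 Hemangioblast arrays (red) and the 2 hCD4 arrays (blue), in pathway order, with circles for replicate 1, triangles for replicate 2 and lines for the group means. The groups are farthest apart for Alas2 (474 and 586 against 112 and 138) and Fech (418 and 455 against 157 and 194), and they overlap for 1 probe set each of Urod and Ppox.

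Alas2, the erythroid form of 5-aminolevulinate synthase, which joins glycine to succinyl-CoA in the rate-limiting step of red cell heme synthesis, showed the largest change of the 8 genes. It had scaled intensities of 474 and 586 on the Hemangioblast arrays, against 112 and 138 on the hCD4 arrays. The groups lay well apart, and every Hemangioblast array was at least 3.18-fold above every hCD4 array after the added constant of 16. The log2 change was 1.95 (SE 0.231, 95% interval 1.42 to 2.48, adjusted p = 0.00243), and 1.09% of all tested probe sets had a larger one. The array maker's suffix _s marks the only Alas2 probe set as one whose probes can match more than 1 related sequence. Other suffixes (_r or _i) stand on the only Fech probe set, both Cpox sets and the dimmer Urod and Ppox sets. What these suffixes mean for the values was not tested.

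Alas1, the housekeeping form of the same enzyme, had 506 and 595 on the Hemangioblast arrays, against 315 and 382 on the hCD4 arrays. The groups did not overlap, but the change did not pass the test (log2 change 0.64, SE 0.194, 95% interval 0.19 to 1.08, adjusted p = 0.128). Within each array the log2 value of Alas2 minus that of Alas1 was -0.09 and -0.02 on the Hemangioblast arrays, against -1.38 and -1.37 on the hCD4 arrays. These differences do not compare the levels of the genes, since they come from different probes, but their shift of 1.32 between the groups is the amount by which Alas2 changed more than Alas1. An exact two-sided permutation test of that shift gave p = 0.33, the smallest value that 2 arrays against 2 allow. The shift was far larger than the spread between arrays of a group, with SDs (n = 2) of 0.0504 for Hemangioblast and 0.0049 for hCD4. Arrays of a group may share a culture, so these SDs may not measure the spread between cultures.

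Alad, the cytosolic enzyme that joins 2 molecules of 5-aminolevulinate into porphobilinogen, was on the brightest probe set of the pathway. It had 2268 and 1981 on the Hemangioblast arrays, against 1169 and 1235 on the hCD4 arrays. Its groups did not overlap, and all pairs of arrays differed by 1.60-fold to 1.93-fold after the added constant of 16. The log2 change was 0.81 (SE 0.147, adjusted p = 0.0197). The call was lost without hCD4 replicate 1 (adjusted p = 0.16) and without hCD4 replicate 2 (0.14), and with median scaling (0.104), no scaling (0.112) or no intensity trend in the variance model (0.163).

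The later cytosolic enzymes had higher means on the Hemangioblast arrays but did not pass the test. Uros, which closes the linear tetrapyrrole into uroporphyrinogen III, had 370 and 343 on the Hemangioblast arrays, against 161 and 264 on the hCD4 arrays. The groups did not overlap, but the hCD4 arrays lay far apart (log2 change 0.74, SE 0.264, 95% interval 0.14 to 1.35, adjusted p = 0.194). Urod, which trims the acetate side chains of uroporphyrinogen, was measured by 2 probe sets. The brighter had 700 and 581 on the Hemangioblast arrays, against 446 and 443 on the hCD4 arrays (log2 change 0.51, SE 0.177, 95% interval 0.10 to 0.91, adjusted p = 0.188). Its hCD4 arrays were nearly equal and both lay below the Hemangioblast arrays. The dim one had 74.0 and 91.6 against 98.1 and 54.2, and its groups overlapped (0.14, SE 0.356, adjusted p = 0.923).

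The last 3 steps return to the mitochondrion. Cpox, which oxidises coproporphyrinogen between the mitochondrial membranes, came closest to the threshold of the genes that missed it. Its bright probe set had 1506 and 1901 on the Hemangioblast arrays, against 1007 and 1074 on the hCD4 arrays (log2 change 0.69, SE 0.164, 95% interval 0.32 to 1.07, adjusted p = 0.0559). Its other probe set had 420 and 617 against 306 and 196 (log2 change 1.01, SE 0.273, 95% interval 0.38 to 1.64, adjusted p = 0.0889). Neither set overlapped between the groups. The bright set passed with an added constant of 1 (adjusted p = 0.0427), with dim probe sets left out (0.0236) and without Hemangioblast replicate 1 (0.0231), and with dim probe sets left out the second passed as well (0.0246).

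Ppox, which oxidises protoporphyrinogen IX to protoporphyrin IX, had the smallest change of the 8 genes. Its brighter probe set had 198 and 274 on the Hemangioblast arrays, against 194 and 205 on the hCD4 arrays. The groups overlapped, and the log2 change was 0.21 (SE 0.249, 95% interval -0.36 to 0.78, adjusted p = 0.787). The dim set had 60.3 and 57.1 against 41.2 and 45.9 (log2 change 0.33, SE 0.325, adjusted p = 0.726).

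Fech completes heme by placing iron in protoporphyrin IX. It had 418 and 455 on the Hemangioblast arrays, against 157 and 194 on the hCD4 arrays. The groups did not overlap, and every pair of arrays differed at least 2.06-fold after the added constant of 16. Its log2 change was 1.25 (SE 0.217, 95% interval 0.75 to 1.74, adjusted p = 0.0167), and 2.72% of all tested probe sets had a larger one. Leaving out any 1 of the 4 arrays ended the call, with adjusted p-values of 0.0510 and 0.0905 without a Hemangioblast array and 0.103 and 0.0563 without an hCD4 array. Alas2 and Fech were the 2 members that differed at least 2-fold in all 4 pairs of a Hemangioblast and an hCD4 array, which 2.29% of all tested probe sets did in that direction.

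**Figure D2:**
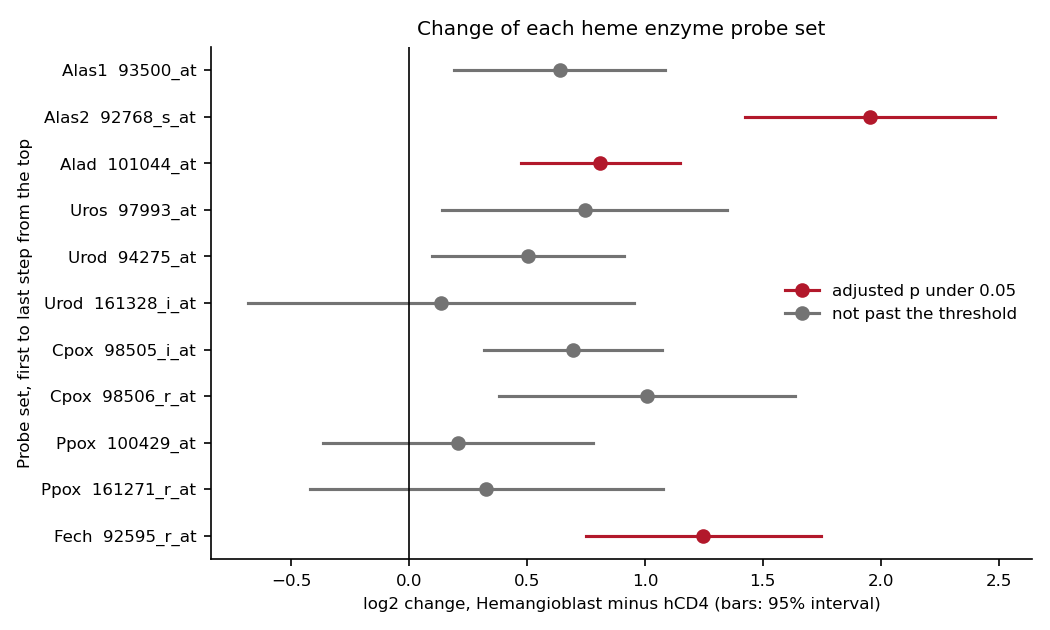
Log2 change (Hemangioblast minus hCD4) of each heme enzyme probe set with its 95% interval, from the first step at the top to the last at the bottom, red where the adjusted p was under 0.05. Alas2 (1.95), Fech (1.25) and Alad (0.81) are past the threshold, and the intervals of both Ppox probe sets and of the dim Urod probe set include 0.

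The intervals order the members only in part. With each gene taken by its brightest probe set, the interval of Alas2 (1.42 to 2.48) lay above those of Alas1, Alad (0.47 to 1.15), Uros, Urod, Cpox and Ppox and overlapped that of Fech. The interval of Fech overlapped those of all 7 other genes, so its place above Alad, Cpox and Uros was not established. Gene-to-gene differences other than Alas2 against Alas1 were not tested. Between arrays of a group the spread was largest for Uros, the dim Urod probe set and the dimmer Cpox probe set on the hCD4 arrays, with log2 differences of -0.66, 0.70 and 0.60 (replicate 1 minus replicate 2). For Alas1 and Alas2 replicate 2 was the brighter array in both groups, with differences of -0.23 and -0.30 on the Hemangioblast arrays, and of -0.26 and -0.27 on the hCD4 arrays.

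The partners of the pathway moved in part. Of 27 listed genes, mostly for porphyrin and heme transport, heme binding and the iron-sulfur clusters that Fech needs, 18 were measured, 3 were higher and 0 lower, and the median log2 change was 0.08. Counted by genes, 3.43% of all genes were called higher and 1.95% lower. Hebp1, a cytosolic protein that binds heme and porphyrins, had 722 and 707 on the Hemangioblast arrays, against 195 and 157 on the hCD4 arrays (log2 change 1.94, SE 0.199, adjusted p = 0.00116). The groups lay far apart, and the call held under each of the 12 alternative settings that tested it. Tmem14c, which carries protoporphyrinogen IX across the inner mitochondrial membrane in red cell precursors, had 1947 and 2061 against 933 and 1172 (log2 change 0.93, SE 0.161, adjusted p = 0.0167). Tspo, a porphyrin- and cholesterol-binding protein of the outer mitochondrial membrane, had 2187 and 2448 against 1219 and 1249 (0.90, SE 0.143, adjusted p = 0.0115). Neither overlapped between groups. Each call held under 8 of 12 alternatives, with highest adjusted p-values of 0.149 for Tmem14c and 0.128 for Tspo. Fdx1, a ferredoxin of mitochondrial electron transfer, had 706 and 507 against 389 and 296 and missed the threshold (0.79, SE 0.227, adjusted p = 0.109). Abcb10, a mitochondrial transporter needed for haemoglobin production and named after its values were seen, had 296 and 343 against 323 and 325 (-0.02, SE 0.199, adjusted p = 0.984).

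Of the listed genes that make or use glycine and succinyl-CoA, the substrates of Alas2, Gldc alone passed, and it was lower. Of 11 measured genes, limma called 0 higher and 1 lower (0 higher and 2 lower at an unadjusted p under 0.05), with a median log2 change of 0.04. The lower one was Gldc, which breaks glycine down, with 123 and 142 on the Hemangioblast arrays, against 957 and 1042 on the hCD4 arrays (log2 change -2.78, SE 0.191, adjusted p = 0.000234). Shmt1, which interconverts serine and glycine, had 770 and 492 against 962 and 1185 (-0.78, SE 0.229, adjusted p = 0.115). It passed, and was lower, when dim probe sets were left out (adjusted p = 0.0465). A dimmer Shmt1 probe set had 87.0 and 136 against 209 and 307 (-1.11, SE 0.310, adjusted p = 0.100), without overlap of the groups. Shmt2, the mitochondrial counterpart of Shmt1, had 321 and 272 against 320 and 382 (-0.23, SE 0.209, adjusted p = 0.696). Dlst, a subunit of the enzyme complex that makes succinyl-CoA, had 706 and 658 against 649 and 597 (0.13, SE 0.162, adjusted p = 0.799). Among the enzymes of the citric acid cycle, another pathway of the mitochondrion, 0 of 10 passed by limma (0 higher and 0 lower at an unadjusted p under 0.05) and 0 under each of the 12 alternative settings run on them, and the median log2 change was 0.19. Sdha, a subunit of succinate dehydrogenase, had the smallest adjusted p of that list (0.317), with 288 and 286 against 229 and 154. Idh3a, Sdhc and Sdhd came next, with log2 changes of -0.37, 0.21 and 0.21 and adjusted p-values of 0.51, 0.544 and 0.553.

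Heme breakdown was measured by 3 of 4 listed genes, of which 0 passed by limma (1 higher and 0 lower at an unadjusted p under 0.05) and 1 did when dim probe sets were left out. Blvra, which reduces biliverdin to bilirubin, had 198 and 173 on the Hemangioblast arrays, against 76.0 and 87.4 on the hCD4 arrays (log2 change 1.05, SE 0.278, adjusted p = 0.0847). Hmox1, the inducible oxygenase that opens the heme ring, had 929 and 1199 against 891 and 804 (0.31, SE 0.175, adjusted p = 0.458), and Hmox2, its constitutive relative, had 175 and 164 against 115 and 147 (0.35, SE 0.269, adjusted p = 0.624).

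Most regulators of heme enzyme genes and heme sensing did not pass the test. Of 21 measured genes, 2 were higher, 1 was lower and 18 did not pass, with a median log2 change of -0.03. At an unadjusted p under 0.05 (limma) 5 were higher and 4 lower, where 8.9% of all tested probe sets were higher. Nfe2, a factor of red cell precursors and megakaryocytes that acts on globin and heme genes, had 828 and 653 on the Hemangioblast arrays, against 226 and 339 on the hCD4 arrays (log2 change 1.36, SE 0.235, adjusted p = 0.0166). Epor, the erythropoietin receptor, had 550 and 511 against 276 and 282 (0.89, SE 0.183, adjusted p = 0.0337). Gata2, the GATA factor of blood progenitors, had 461 and 489 against 947 and 953 (-0.98, SE 0.157, adjusted p = 0.0124). The 3 genes did not overlap between groups, and the call held under 9 of 12 alternatives for Nfe2, 8 of 12 for Gata2 and 5 of 12 for Epor. All 3 lost it without an intensity trend (adjusted p = 0.105, 0.102 and 0.126 for Nfe2, Gata2 and Epor). Epor also lost it with median scaling (0.0813), without scaling (0.0959) and with any 1 array left out (0.0905 to 0.166). With 1 array left out the highest adjusted p was 0.101 for Nfe2 and 0.109 for Gata2. A dim second probe set of Gata2 had 35.0 and 112 against 44.4 and 23.0 (0.74, SE 0.489, adjusted p = 0.55). Tal1, whose product joins GATA1 at erythroid genes, missed the threshold (-0.81, SE 0.186, adjusted p = 0.0513). Gata1, which activates Alas2, had 584 and 746 against 402 and 518 and did not pass (0.52, SE 0.204, adjusted p = 0.249). A dimmer Gata1 probe set had 408 and 558 against 247 and 320 and did not pass either (0.73, SE 0.231, adjusted p = 0.141). Klf1, the erythroid Kruppel-like factor, had 1186 and 1290 against 978 and 956 (0.35, SE 0.146, adjusted p = 0.282). Bach1, a repressor released by heme, had 838 and 765 against 493 and 615 (0.53, SE 0.177, adjusted p = 0.167), and Eif2ak1, the heme-regulated kinase that stops translation when heme is short, had 409 and 448 against 397 and 396 (0.11, SE 0.180, adjusted p = 0.863). Gata1, Klf1, Bach1 and Eif2ak1 were named after their values were seen, and Epor, Gata1 and Klf1 are also erythroid markers above.

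**Figure D3:**
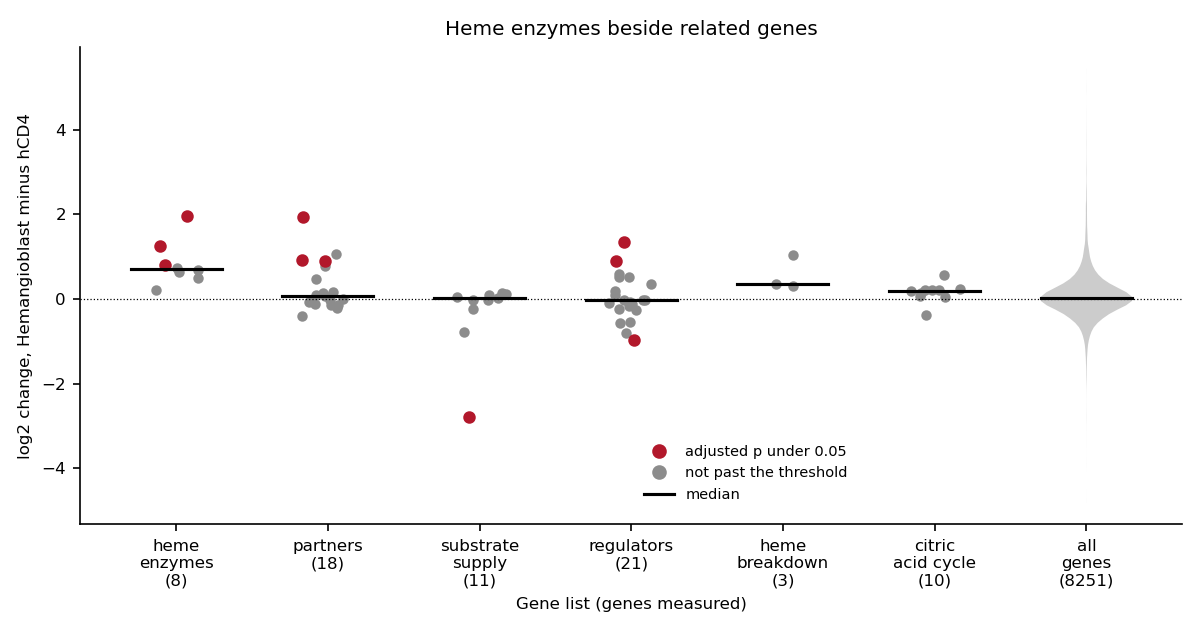
Log2 change (Hemangioblast minus hCD4) of the genes of each list, 1 point per gene by its brightest probe set, red where the adjusted p was under 0.05, with black lines for the medians and the spread of all 8251 genes at the right. The heme enzymes have a median of 0.72, against 0.08 for their partners, 0.04 for substrate supply, -0.03 for regulators, 0.35 for heme breakdown, 0.19 for the citric acid cycle and 0.02 for all genes.

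The genes whose values over the 4 arrays were most like those of Alas2 were sought among 6260 other genes. Each had a mean scaled intensity of at least 100 over all 4 arrays together. Likeness was the root mean square difference of log2 values after each gene's own mean was subtracted. The 5 nearest to Alas2 were Plin2, a coat protein of lipid droplets (0.0863), Fgl2, a fibrinogen-like protein of activated macrophages (0.112), Skap2, a Src kinase adaptor of leukocytes (0.113), Aif1, an actin-binding protein of macrophages (0.116), and Rac2, a small GTPase of blood cells (0.122). Plin2 had 2195 and 2844 on the Hemangioblast arrays, against 528 and 608 on the hCD4 arrays. The 5 nearest to Fech were Dram2 (0.0357), an autophagy regulator of lysosomes, Lat2 (0.0390), a signalling adaptor of blood cells, Zbtb16 (0.0641), a zinc finger factor, Pcyt1a (0.0757), an enzyme of phosphatidylcholine synthesis, and Mfng (0.0893), which adds sugars to Notch. Lat2 had 202 and 211 against 64.8 and 87.6. Aif1, Fgl2, Lat2 and Zbtb16 had hCD4 means under 100 (35.0, 79.3, 76.2 and 83.4). They passed the intensity filter only through the Hemangioblast arrays. A likeness over 4 arrays in 2 groups mainly matches the size of the change, and it was given no test.

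**Figure D4:**
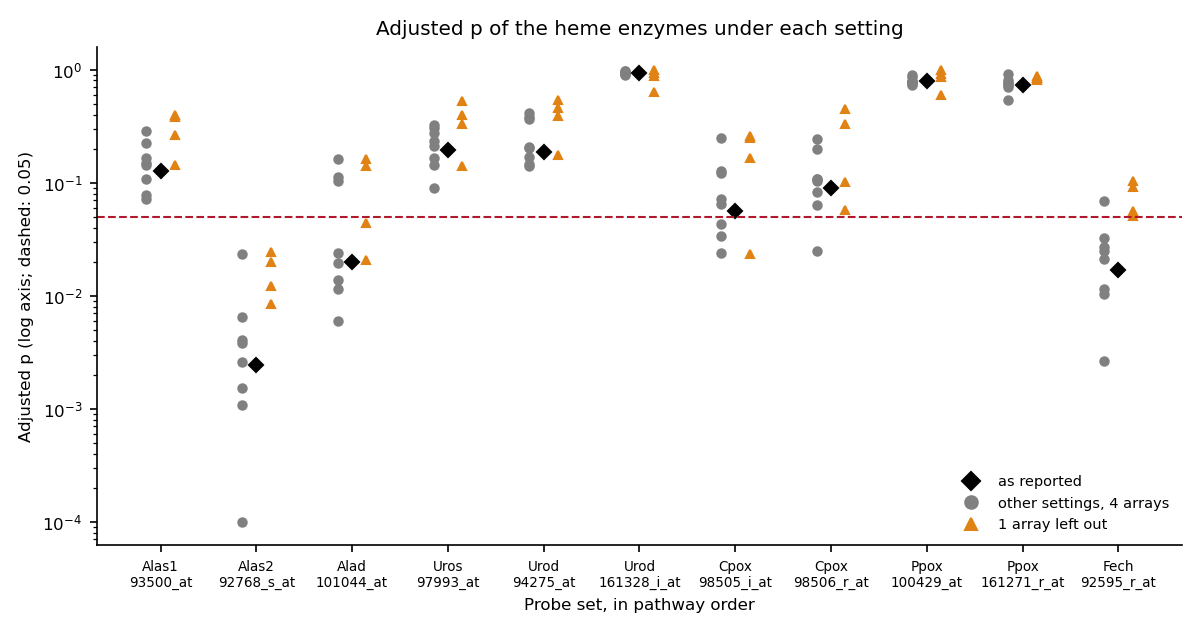
Adjusted p (log axis) of each heme enzyme probe set as reported (black), under the other settings that used all 4 arrays (grey) and with 1 array left out (orange), with the threshold of 0.05 dashed. Alas2 stays below the line under all 12 alternatives, with a highest value of 0.0243, while Alad and Fech are below it in 7 of 12 each.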

How the data were processed

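Biotin-labelled RNA of 4 samples was hybridised to single-colour arrays, and samples were grouped by the array titles. The values the authors deposited are linear intensities, 1 for each probe set of an array, and their software, background correction and scaling are not stated in the labels or the file. No value column was set aside.

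The 66 control probe sets were dropped from 12488. Each array was scaled to the average trimmed mean (2% trimmed at each end). Changes are differences of log2(scaled intensity + 16), which understates those of dim genes. The test was limma's (version 3.58.1, R 4.3.3) with lmFit, then eBayes with trend, 2 residual and 6.18 prior degrees of freedom, two-sided, adjusted by Benjamini-Hochberg over 12422 probe sets with none filtered out. The test was tried on simulated data with independent noise on each array and changes planted in the brighter probe sets only. Each simulated probe set took a variance smoothed over probe sets of like intensity, so the spread of variances among such probe sets was not simulated. Arrays of a group that share a culture were not simulated either. The simulation therefore does not show how the test performs on these data. Intervals are the 95% intervals of limma. matplotlib 3.10.9 (Python 3.11.15) drew the figures.

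Genes were named from probe sets with 1 symbol in the platform annotation (10833 of those tested). In gene counts the probe set with the highest mean stands for a gene. The members, lists and tests were chosen with earlier results of these data known. In each list, up to 4 genes with the smallest adjusted p were to be named, and all past the threshold if 4 or fewer. Other names are marked in the text. The number of arrays limits the precision, and the median SE of a log2 change was 0.27. Same-numbered arrays did not deviate together (r = -0.00781 across probe sets), so no block was used. Alternatives were added constants of 1 and 64, median, quantile or no scaling, no intensity trend and the replicate block. The others were a filter at a mean intensity of 100 over the 4 arrays, the mean of a gene's probe sets and each array left out.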

Additional observations from a re-analysis of the deposited data

How the results depend on the processing

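The counts of calls depended on the variance model and on single arrays. Against 556 probe sets past the threshold (65.1% of them higher on the Hemangioblast arrays), the number was 272 without scaling (81.6% higher), 220 without an intensity trend, 853 when only the 8366 probe sets above the filter were tested, and 219 to 517 with 1 array left out. The count of heme enzyme probe sets was 3, against 1 without an intensity trend, 5 with dim probe sets left out and 1 to 3 with 1 array left out. The count of heme enzyme genes was 3, against 1 without an intensity trend and 1 to 3 with 1 array left out. Alas2 was among the calls each time, and alone without an intensity trend and without hCD4 replicate 1 or 2. Without Hemangioblast replicate 1 the called genes were Alas2, Alad and Cpox, and without Hemangioblast replicate 2 Alas2 and Alad. With the replicate block, which the array numbers do not justify, 710 probe sets and 4 heme enzyme genes passed, the added one being Cpox (adjusted p = 0.0335). The shift between Alas2 and Alas1 was 1.07 to 1.42 under the alternatives run on it. The log2 change of the dim Urod probe set was -0.0397 with quantile normalization and -0.21 to 0.48 with 1 array left out (negative without hCD4 replicate 2), and that of the brighter Ppox probe set was -0.0107 to 0.42 with 1 array left out (negative without Hemangioblast replicate 2). All other changes of heme enzyme probe sets kept their sign under the alternatives run. The log2 change of Abcb10 was 0.0782 without Hemangioblast replicate 1 and -0.12 to 0.0782 over the arrays left out. Among the heme enzymes and the other genes that were recomputed, 476 of the alternative values kept their side of the threshold and their sign, 68 no longer passed, 13 newly passed and 4 changed sign. The cause of these shifts was not tested. Leaving out an array leaves 1 array in a group, which is assumed to vary like the others.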
